A study of Homo sapiens with 8 samples.

Results

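VAPA, MPST, ELP2 and ACSM3 are 4 of the 23592 genes measured in K562 cells carrying an inducible SF3B1 transgene. They were picked because their summed FPKM (fragments scaled to transcript length and to the mapped fragments of the library) was lower after induction of the K700E transgene and higher after induction of the wild-type (WT) transgene. Both directions of that pattern were therefore used in the choice, and the levels below are a description of these libraries. Which transcripts carried the FPKM in each library was not itself a criterion, and much of the account concerns that. It is not independent of the choice, since a short form listed in a library raises the summed FPKM there.

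K562 is a human erythroleukaemia line. Doxycycline was given for 48 h at 1 ug/ml to cells with the SF3B1-K700E transgene (K700E_induced), and cells of the same line without it were K700E_uninduced. Cells with the SF3B1-WT transgene gave WT_induced and WT_uninduced in the same way, with 2 libraries in each of the 4 groups. All 4 groups hold a transgene beside the endogenous gene, and whether a line is 1 clone is not given in the sources used here. Nothing states that the libraries of a group came from separate cultures, so SDs and p-values measure the spread between libraries, which may be technical.

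SF3B1 is the U2 small nuclear ribonucleoprotein subunit that helps to recognise the branch point before a 3′ splice site, and the K700E substitution recurs in myelodysplastic syndromes. The 4 genes do unrelated work. VAPA is a membrane protein of the endoplasmic reticulum that docks lipid transfer proteins at contacts with other organelles. MPST is a sulfurtransferase that moves sulfur from 3-mercaptopyruvate and is a source of hydrogen sulfide. ELP2 is a WD40-repeat subunit of Elongator, the complex that modifies the wobble uridine of transfer RNAs. ACSM3 is a mitochondrial enzyme that activates medium-chain fatty acids as their coenzyme A esters.

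The summed level of SF3B1 gave no check of the induction. It averaged 34.2 ± 7.45 FPKM in K700E_induced and 32.5 ± 2.98 FPKM in K700E_uninduced (SD, n = 2 each), and 31.97 ± 6.57 FPKM in WT_induced against 34.7 ± 4.23 FPKM in WT_uninduced (SD, n = 2 each). Read totals are not used here; the coverage per FPKM in the files, which follows depth, was 3.28 to 4.78. All 8 erythroid markers, among them GATA1 and the embryonic and fetal globin genes, were above 0 in every group, and their summed FPKM was 4151 to 6958 in K700E_induced, 4934 to 8438 in K700E_uninduced, 3560 to 4564 in WT_induced and 3845 to 4975 in WT_uninduced. The 5 lymphoid markers summed to 10.0 and 10.4 FPKM in K700E_induced against 21.7 and 63.4 FPKM in K700E_uninduced, and to 8.40 and 23.1 FPKM in WT_induced against 25.5 and 38.5 FPKM in WT_uninduced. MS4A1 was listed at 0 in all libraries, and CD3D made up most of that sum in 7 of the 8 libraries. The lymphoid sum was lower after either induction, and its part in the values of the 4 genes was not tested. The 5 stromal and endothelial markers summed to 1.62 to 11.8 FPKM in K700E_induced, 7.28 to 10.2 FPKM in K700E_uninduced, 0.691 to 0.708 FPKM in WT_induced and 1.22 to 3.35 FPKM in WT_uninduced.

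The files list 14 reference transcripts for the 4 genes in every library, and 11 further spliced transcripts that Cufflinks assembled in single libraries. VAPA has 2 reference and 2 assembled transcripts, MPST 3 and 1, ELP2 7 and 4, and ACSM3 2 and 4. None of the 11 assembled transcripts (0) repeated the whole intron chain of a reference transcript, 4 were a stretch of such a chain, and 5 held an intron that no reference transcript of the gene has. Assembled transcripts are common in these files: 6800 of the 11371 genes tested, 59.8%, had one in at least 1 library.

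Exons of VAPA and ELP2 in which the forms differ are printed here, since the results below turn on which form was listed. They are read from GENCODE v29 transcripts (GRCh38, + strand) whose inner exon and intron lengths equal those of the same RefSeq accessions in the files, and each lies wholly in coding sequence. For the alternative exon of VAPA, at chr18:9944924-9945058, capitals mark the exon and lower case the 10 nt of the transcript on either side.
VAPA alternative exon: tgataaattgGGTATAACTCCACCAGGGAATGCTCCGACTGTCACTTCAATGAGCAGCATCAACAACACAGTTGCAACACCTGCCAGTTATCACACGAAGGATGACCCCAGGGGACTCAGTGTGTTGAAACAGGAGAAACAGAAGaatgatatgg
For ELP2, exon 18 is at chr18:36164475-36164667 and exon 19 at chr18:36167101-36167222. Capitals mark the 136 nt of exon 18 that the form assembled in WT_induced replicate 2 removes with the intron, and the 52 nt of exon 19 that are lost where a downstream 3′ splice site (acceptor) is used.
ELP2 exon 18: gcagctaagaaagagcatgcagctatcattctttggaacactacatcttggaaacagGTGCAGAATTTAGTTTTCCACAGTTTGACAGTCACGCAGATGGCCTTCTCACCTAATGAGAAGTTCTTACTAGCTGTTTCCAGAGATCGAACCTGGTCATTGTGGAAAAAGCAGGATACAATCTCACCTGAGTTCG
ELP2 exon 19: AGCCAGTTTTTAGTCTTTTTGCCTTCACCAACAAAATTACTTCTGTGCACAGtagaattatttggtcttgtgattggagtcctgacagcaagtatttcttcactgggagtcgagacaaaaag
The VAPA exon, of 135 nt, holds a whole number of codons. The capital stretch of ELP2 exon 18 opens with GT and that of exon 19 ends in AG, the usual ends of an intron, and neither 136 nor 52 nt is a whole number of codons.

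At the level of whole genes, the summed FPKM of all 4 was lower in both K700E_induced libraries than in both K700E_uninduced ones, as for 17.8% of the 11371 genes tested, and higher in both WT_induced libraries than in both WT_uninduced ones, as for 15% of them. Both held together for 283 genes, 2.49%, which is the pattern the 4 were chosen by, and nothing is read from their count. The mirror pattern, higher with K700E and lower with WT, held for 245 genes, 2.15%. In a limma fit over all 11371 genes, 1 gene passed an adjusted p of 0.05 on K700E induction (0.00879%), 1 on WT induction (0.00879%) and 2 for the difference between the inductions (0.0176%). These calls held 0 of the 4 genes. With reference transcripts alone the shares called were 0.0181%, 0.0816% and 0.0181% in the same order, again with 0 of the 4. At an unadjusted limma p under 0.05 there were 533, 489 and 481 genes in these 3 comparisons with all spliced forms. With reference transcripts alone there were 480, 497 and 439. Each count is under a share of 0.05 of the genes tested, the share that this threshold passes where no gene differs.

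**Figure D1:**
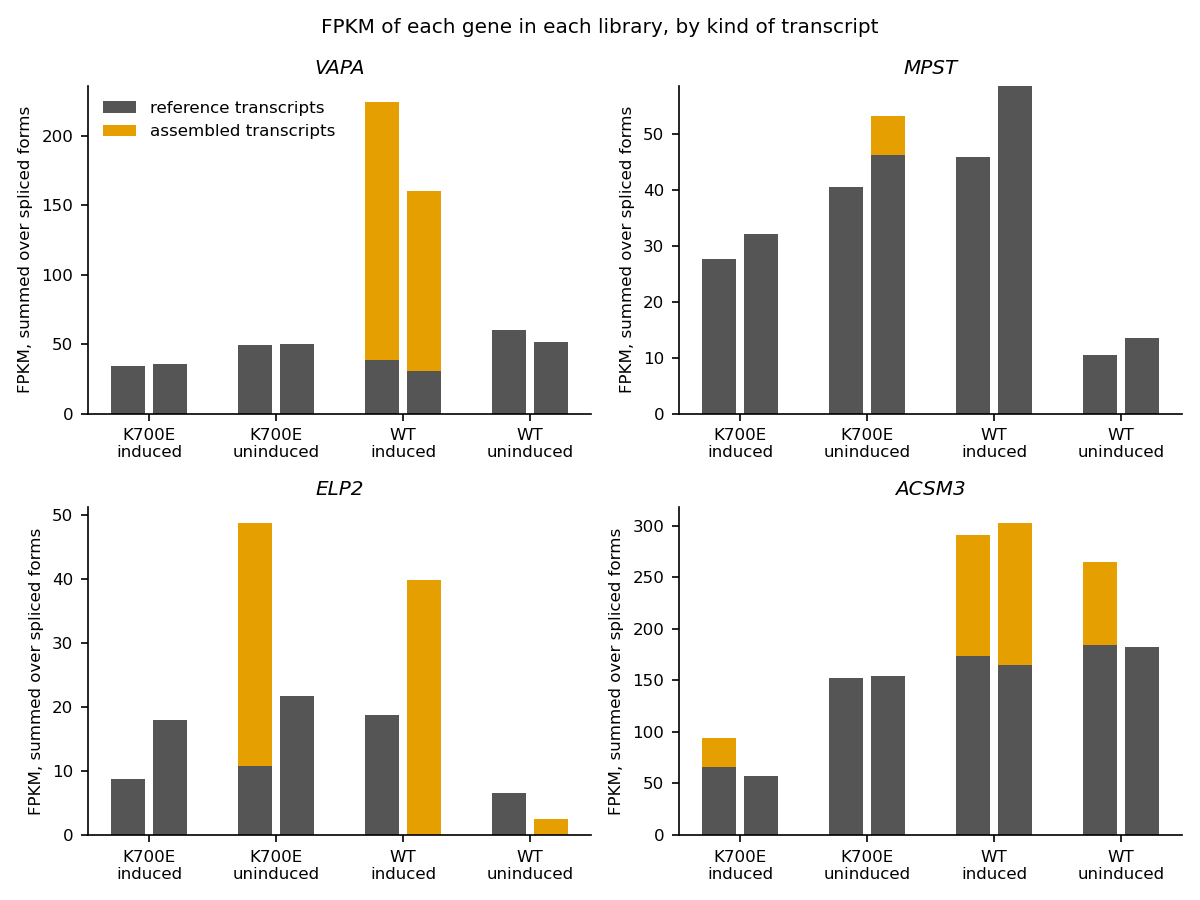
FPKM of VAPA, MPST, ELP2 and ACSM3 (y axes, linear, from 0) in each of the 8 libraries, in 4 groups of 2, replicate 1 left of replicate 2. Grey is the sum over reference transcripts and orange the sum over assembled spliced transcripts; in VAPA the orange part, 186.0 and 130.2 FPKM, stands in the WT_induced libraries.

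VAPA summed to 33.9 and 35.7 FPKM in K700E_induced and to 49.6 and 50.1 FPKM in K700E_uninduced. It summed to 224.7 and 160.6 FPKM in WT_induced and to 60.3 and 51.9 FPKM in WT_uninduced. Both WT_induced libraries lay far above the other 6, and both K700E_induced libraries were the lowest of all. In bulk RNA, fewer cells expressing a gene and less of its RNA per cell cannot be told apart. Group means were 34.8 ± 1.28 and 49.8 ± 0.380 FPKM in K700E_induced and K700E_uninduced, and 192.7 ± 45.3 and 56.1 ± 5.96 FPKM in WT_induced and WT_uninduced (SD, n = 2 each). All fold changes here are given on the log2(FPKM + 0.5) scale. For VAPA the change was -0.51 (SE 0.30) on K700E induction and 1.75 (SE 0.30) on WT induction.

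The WT_induced excess of VAPA sat in assembled transcripts. They held 186.0 FPKM, 82.8% of the gene, in replicate 1 and 130.2 FPKM, 81.1%, in replicate 2, and no other library had one. The reference transcripts by themselves gave 38.7 and 30.4 FPKM in WT_induced against 60.3 and 51.9 FPKM in WT_uninduced. Counted in that way VAPA was lower, not higher, after WT induction, with a log2 change of -0.70 (SE 0.33), while the K700E value stayed at -0.51 (SE 0.33). The K700E_induced libraries, at 33.9 and 35.7 FPKM of reference transcripts, were then level with the WT_induced ones, with a ratio of means of 1.01.

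The 2 assembled VAPA transcripts were not the same molecule. The gene lies at 9913955 to 9960018 on the + strand of chromosome 18 (hg19), and its reference transcripts, NM_194434 with 6 exons and NM_003574 with 7, are 6859 and 6994 nt long because of a long last exon. The form in WT_induced replicate 1 was 1094 nt long, ended at 9954271, held the alternative exon and joined exon 1 to exon 3 with exon 2 left out. The form in WT_induced replicate 2 was 1339 nt long, began at another first exon at 9914999, ended at 9954812, kept exon 2 and lacked the alternative exon. What they shared was the lack of the long end of the last exon.

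**Figure D2:**
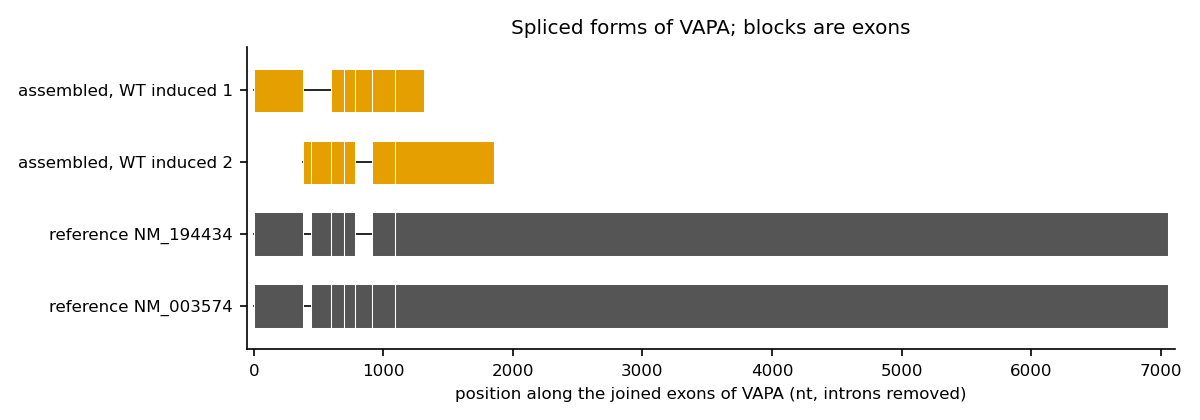
Exons (blocks) of the 2 forms of VAPA assembled in the WT_induced libraries (orange) and of its 2 reference transcripts (grey), along the gene's joined exons in nt with introns removed; thin lines bridge exons a form leaves out. The assembled forms, of 1094 and 1339 nt, stop early in the last exon, which makes up most of the reference transcripts.

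FPKM divides fragments by transcript length, so a given number of fragments yields a higher FPKM on a shorter form. Multiplying each transcript's FPKM by its length in kb and summing gives a length-weighted value that follows the fragments assigned to the gene. For VAPA it was 233.9 and 246.1 FPKM × kb in K700E_induced against 340.1 and 343.8 in K700E_uninduced, and 469.0 and 382.9 in WT_induced against 413.5 and 358.2 in WT_uninduced. The WT groups overlapped on this measure, at a ratio of means of 1.10 where the summed FPKM gave 3.44. The K700E_induced libraries remained the 2 lowest of the 8, with a ratio of means of 0.702 to K700E_uninduced. The log2 changes were -0.51 (SE 0.22) on K700E induction and 0.13 (SE 0.22) on WT induction.

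The median of FPKM over the introns that most reference transcripts of a gene share, a further reading that adds up every form crossing an intron, gave VAPA 131.7 and 160.6 FPKM in WT_induced against 60.3 and 51.9 FPKM in WT_uninduced. On introns the WT_induced libraries thus stayed above the others. Intron values inherit the FPKM of the short forms, and the 2 measures weigh them differently; these files do not tell which assignment of reads is right.

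VAPA also differed in its alternative exon of 135 nt, at 9944921 to 9945055 (hg19). NM_003574, the reference form with it, had 9.69 and 8.74 FPKM in K700E_induced, 28.6% and 24.5% of the gene, and was listed at 0 in both K700E_uninduced libraries. It was listed at 0 in both WT_induced libraries and had 0 and 18.2 FPKM in WT_uninduced. In WT_induced replicate 1 the exon was instead held by the assembled form with 186.0 FPKM. Forms with the exon were thus listed in both K700E_induced libraries, in neither K700E_uninduced library and in 1 of 2 libraries of each WT group. This reading was picked out with its values in view and was not tested.

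MPST, the sulfurtransferase, had 27.6 and 32.2 FPKM in K700E_induced and 40.5 and 53.2 FPKM in K700E_uninduced. It had 45.9 and 58.6 FPKM in WT_induced and 10.4 and 13.6 FPKM in WT_uninduced. The WT_uninduced libraries were the 2 lowest of the 8, and the other 6 lay between 27.6 and 58.6 FPKM. Means were 29.9 ± 3.25 and 46.8 ± 8.97 FPKM in K700E_induced and K700E_uninduced, and 52.3 ± 8.96 and 12.01 ± 2.22 FPKM in WT_induced and WT_uninduced (SD, n = 2 each). The log2 change was -0.63 (SE 0.38) on K700E induction and 2.07 (SE 0.38) on WT induction.

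MPST kept its pattern with reference transcripts alone, with length weighting and on shared introns. The only assembled form, in K700E_uninduced replicate 2, held 6.87 FPKM or 12.9% of the gene there, so reference transcripts carried nearly everything and gave -0.53 (SE 0.38) and 2.07 (SE 0.38). Length-weighted values were 38.1 and 43.4 FPKM × kb in K700E_induced against 54.6 and 74.1 in K700E_uninduced, and 62.4 and 79.1 in WT_induced against 14.2 and 18.3 in WT_uninduced. The groups of each line did not overlap on either measure. The length-weighted log2 changes were -0.64 (SE 0.50) and 2.08 (SE 0.50). The 2 lines already differed without doxycycline: the ratio of summed FPKM, K700E_uninduced over WT_uninduced, was 3.90, and that of K700E_induced over WT_induced was 0.572.

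Within MPST, at 37415683 to 37425863 on the + strand of chromosome 22 (hg19), the reference form in use changed from library to library without following the groups. NM_021126 (1349 nt) and NM_001013436 (1359 nt) have 3 exons each and differ in their first exon, which starts at 37415791 and 37415683, and in the donor at its end. NM_021126 was the only form above 0 in replicate 2 of K700E_induced, replicate 1 of K700E_uninduced, replicate 2 of WT_induced and replicate 2 of WT_uninduced. NM_001013436 was the only one in WT_uninduced replicate 1, and it took 87.1% of K700E_uninduced replicate 2 and 88.9% of WT_induced replicate 1. Their lengths are nearly equal, so either form gives about the same FPKM for the same fragments. The deposited intervals of single MPST transcripts had half-widths of 6.86% to 20.4% of the value, which is the error of estimation within a library.

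The span of MPST overlaps that of TST, the thiosulfate sulfurtransferase gene on the opposite strand at 37406900 to 37416224 (hg19), by 542 nt that hold the first exon of MPST and the start of its first intron. TST is a relative of MPST in the rhodanese family. It had 0 and 2.57 FPKM in K700E_induced against 3.98 and 11.2 FPKM in K700E_uninduced, and 18.1 and 19.6 FPKM in WT_induced against 11.3 and 12.8 FPKM in WT_uninduced. Its groups did not overlap in either line, and it had the same directions as MPST. TST was lowest in K700E_induced, whereas MPST was lowest in WT_uninduced. The difference between the inductions for TST was -3.17 (SE 1.34), which limma did not call (adjusted p = 0.999; 0.653 to 1 over the alternatives). Whether the libraries mark strand is not given in the sources used here, so reads from the shared stretch cannot be told apart.

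**Figure D3:**
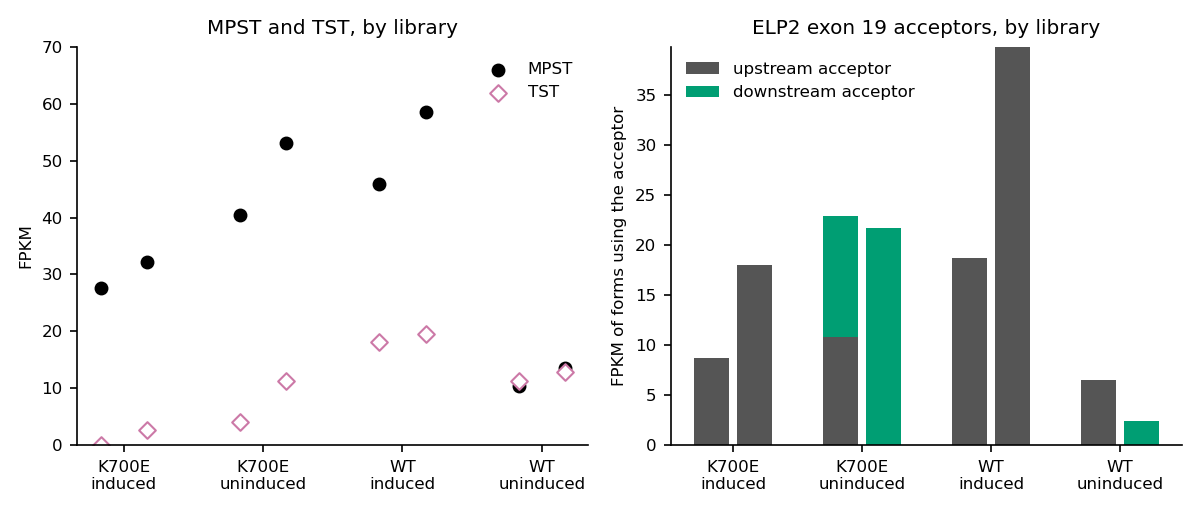
Left, FPKM of MPST (black circles) and of TST on the opposite strand (open diamonds) in the 8 libraries; in WT_uninduced MPST is at 10.4 and 13.6 FPKM beside TST at 11.3 and 12.8. Right, stacked FPKM of ELP2 forms that use the upstream (grey) or the downstream (green) acceptor of exon 19; the downstream acceptor appears in 0 induced libraries and in 3 uninduced ones.

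ELP2, the Elongator subunit, was the lowest and most variable of the 4. It had 8.71 and 17.99 FPKM in K700E_induced against 48.7 and 21.7 FPKM in K700E_uninduced, and 18.7 and 39.8 FPKM in WT_induced against 6.55 and 2.43 FPKM in WT_uninduced. As for MPST, the 2 WT_uninduced libraries were the lowest of the 8. Means were 13.3 ± 6.56 and 35.2 ± 19.1 FPKM in K700E_induced and K700E_uninduced, and 29.3 ± 14.9 and 4.49 ± 2.91 FPKM in WT_induced and WT_uninduced (SD, n = 2 each). The log2 change was -1.34 (SE 0.70) on K700E induction and 2.61 (SE 0.70) on WT induction.

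Nearly every library placed the reads of ELP2 on another form of the gene, which lies at 33709837 to 33754688 on the + strand of chromosome 18 (hg19). All FPKM was on NM_018255 in K700E_induced replicate 1 and on NM_001242879 in K700E_induced replicate 2. K700E_uninduced replicate 1 had 10.8 FPKM on NM_018255, 25.9 FPKM on an assembled form of 577 nt and 3 exons, and 12.1 FPKM on one of 2489 nt, while replicate 2 had everything on NR_040110, a reference transcript annotated as non-coding. WT_induced replicate 1 had 6.87 FPKM on NM_001242878 and 11.9 FPKM on NM_018255, and replicate 2 had all of its 39.8 FPKM on an assembled form of 2279 nt. WT_uninduced replicate 1 had only NM_001242877 and replicate 2 only an assembled form of 2116 nt.

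Reference transcripts alone therefore gave ELP2 no readable level: 8.71 and 17.99 FPKM in K700E_induced against 10.8 and 21.7 FPKM in K700E_uninduced, and 18.7 and 0 FPKM in WT_induced against 6.55 and 0 FPKM in WT_uninduced. Both pairs of groups overlapped, and the log2 changes were -0.28 (SE 1.89) and 0.72 (SE 1.89). Summed with length weighting the forms gave 22.9 and 43.4 FPKM × kb in K700E_induced against 73.3 and 55.7 in K700E_uninduced, and 47.7 and 90.7 in WT_induced against 16.7 and 5.15 in WT_uninduced. The groups of each line did not overlap, and the log2 changes were -1.01 (SE 0.69) and 2.75 (SE 0.69). On shared introns they were -0.80 (SE 0.64) and 2.61 (SE 0.64). The short form of 577 nt in K700E_uninduced replicate 1, 53.1% of that library's FPKM, weighed less in these readings.

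The acceptor listed for ELP2 exon 19 differed between libraries, and the downstream acceptor was listed in uninduced libraries only. The upstream acceptor opens the exon at 33747064 (hg19) and the downstream one at 33747116, so that the 52 nt in capitals above are left out. Forms using the downstream acceptor had 0 and 0 FPKM in K700E_induced against 12.1 and 21.7 FPKM in K700E_uninduced, and 0 and 0 FPKM in WT_induced against 0 and 2.43 FPKM in WT_uninduced. The upstream acceptor had 8.71 and 17.99 FPKM in K700E_induced against 10.8 and 0 FPKM in K700E_uninduced, and 18.7 and 39.8 FPKM in WT_induced against 6.55 and 0 FPKM in WT_uninduced. The downstream acceptor was thus listed in 0 of 4 induced libraries and in 3 of 4 uninduced ones, 2 of the K700E line and 1 of the WT line. This reading was picked out with its values in view, was not tested and was not counted over other genes. Of the 8 libraries, 7 listed 1 acceptor only.

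A second splice choice in ELP2 stood in 1 library. The form assembled in WT_induced replicate 2 leaves exon 18 after 57 of its 193 nt, through an intron from 33744495 to 33747063 (hg19) that no reference transcript of the gene has. It carried the whole 39.8 FPKM of that library, and the other 7 libraries had 0 FPKM on that intron.

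ACSM3, the acyl-CoA synthetase, summed to 94.3 and 57.1 FPKM in K700E_induced against 152.2 and 154.7 FPKM in K700E_uninduced, and to 291.4 and 302.5 FPKM in WT_induced against 265.1 and 182.8 FPKM in WT_uninduced. The K700E_induced libraries were the 2 lowest and the WT_induced libraries the 2 highest of the 8. Means were 75.7 ± 26.3 and 153.4 ± 1.78 FPKM in K700E_induced and K700E_uninduced, and 297.0 ± 7.87 and 224.0 ± 58.2 FPKM in WT_induced and WT_uninduced (SD, n = 2 each). The log2 change was -1.06 (SE 0.32) on K700E induction and 0.43 (SE 0.32) on WT induction.

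The lower level of ACSM3 after K700E induction was present on every reading that keeps its reference transcripts, and the higher level after WT induction was not. Reference transcripts gave 66.3 and 57.1 FPKM in K700E_induced against 152.2 and 154.7 FPKM in K700E_uninduced, and 173.8 and 165.1 FPKM in WT_induced against 184.3 and 182.8 FPKM in WT_uninduced. Both WT_induced libraries were then below both WT_uninduced ones, at -0.12 (SE 0.24), while the K700E change was -1.31 (SE 0.24). Length-weighted values were 167.0 and 96.1 FPKM × kb in K700E_induced against 281.9 and 281.8 in K700E_uninduced, and 481.9 and 371.0 in WT_induced against 481.7 and 341.1 in WT_uninduced. The log2 changes were -1.15 (SE 0.30) and 0.06 (SE 0.30), and the WT groups overlapped. On shared introns the WT change was -0.01 (SE 0.37).

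Assembled forms of ACSM3 made the difference between these readings. The gene lies at 20775312 to 20808479 on the + strand of chromosome 16 (hg19) and has a reference form of 14 exons (NM_005622, 2133 nt) and one of 9 exons that ends early (NM_202000, 1569 nt). A 10-exon form of 1442 nt had 117.6 FPKM in WT_induced replicate 1, and a 7-exon form of 815 nt, covering the 3′ part of the gene only, had 137.5 FPKM in WT_induced replicate 2, where NM_005622 was listed at 0. A 12-exon form of 1800 nt had 80.8 FPKM in WT_uninduced replicate 1, and an 8-exon form of 1367 nt had 28.0 FPKM in K700E_induced replicate 1. In K700E_induced the short reference form took 24.03% and 79.7% of the gene, against 49.8% and 55.2% in K700E_uninduced, so the groups overlapped in its share. ERI2, an exonuclease gene, overlaps ACSM3 on the opposite strand, at 20791515 to 20817795 (hg19), and had 16.8 and 6.39 FPKM in K700E_induced against 14.9 and 0 FPKM in K700E_uninduced, and 0 and 12.6 FPKM in WT_induced against 0 and 13.99 FPKM in WT_uninduced.

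**Figure D4:**
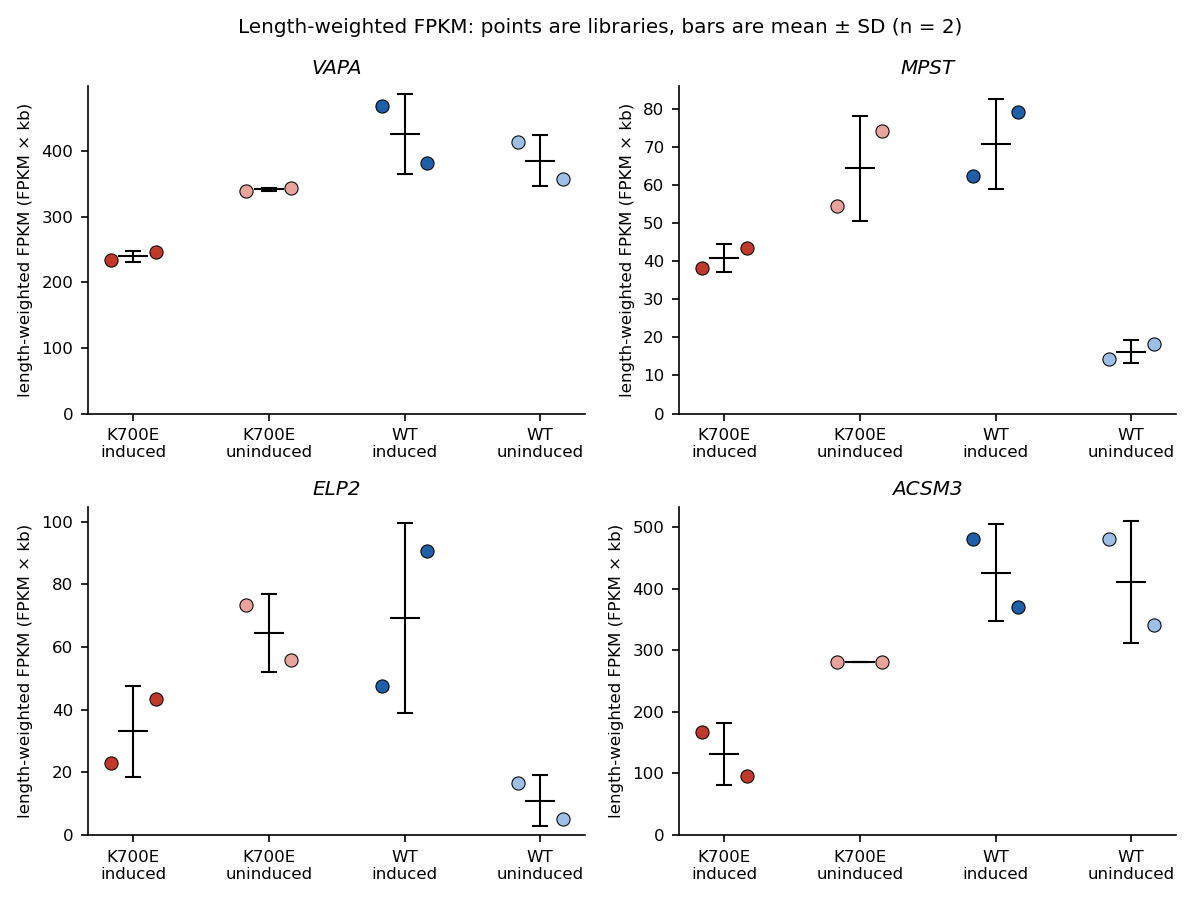
Length-weighted FPKM (y axes, FPKM × kb, linear, from 0) of the 4 genes; points are libraries, replicate 1 on the left, and bars the group mean ± SD (n = 2). K700E_induced is lowest in VAPA and ACSM3, and WT_uninduced is lowest in MPST and ELP2; the WT groups of VAPA and ACSM3 overlap.

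The 4 genes differed in which group stood lowest, both in summed FPKM and with length weighting. The K700E_induced libraries were the 2 lowest of the 8 for VAPA and ACSM3, and the WT_uninduced libraries the 2 lowest for MPST and ELP2. Among the 275 genes with the pattern after length weighting, 2.42% of those tested, K700E_induced held the 2 lowest libraries in 71 (25.8%) and WT_uninduced in 63 (22.9%), and in the other 141 the 2 lowest were 1 of each. Of the 283 genes with the pattern in summed FPKM, 222 (78.4%) kept it with length weighting, 192 (67.8%) on shared introns and 146 (51.6%) with reference transcripts alone. VAPA and ACSM3 were among those that lost it with length weighting, and MPST and ELP2 among those that kept it. Over all genes tested the pattern held for 2.27% with reference transcripts alone, where MPST kept it, and for 2.36% on shared introns, where VAPA, MPST and ELP2 did. An assembled form listed in both WT_induced libraries and in neither WT_uninduced one, as in VAPA, was present in 22 of the 283 genes (7.77%) and in 279 of all 11371 (2.45%). Such forms raise the summed FPKM of WT_induced by their presence, so these shares are a description.

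**Figure D5:**
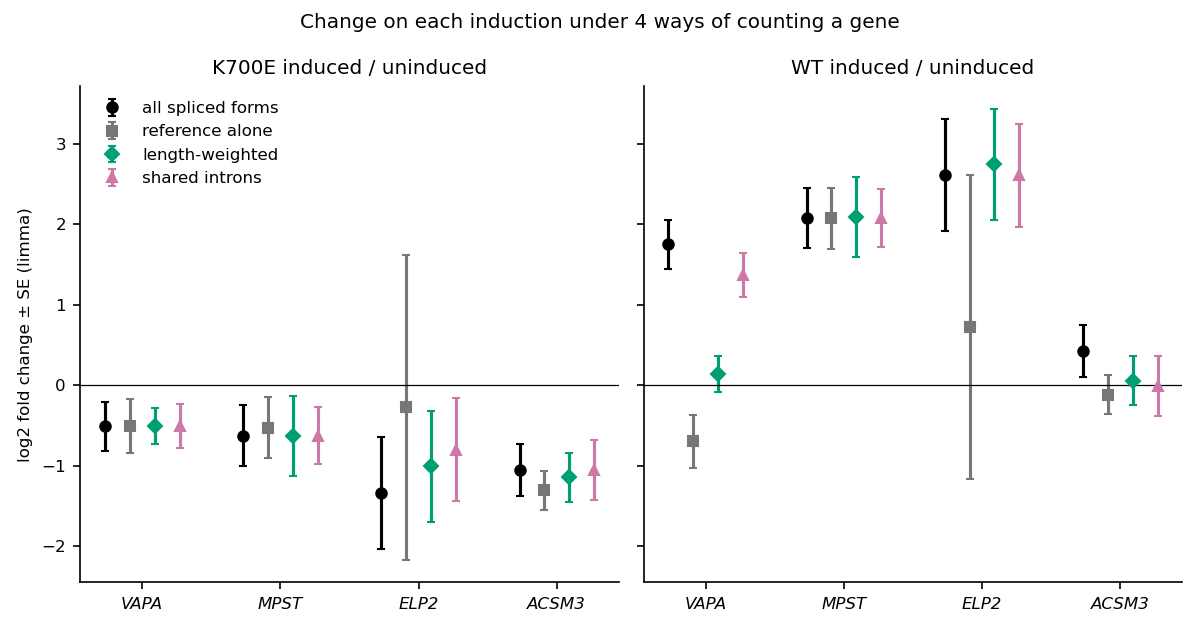
Log2 fold change ± SE (limma) of each gene on K700E induction (left) and WT induction (right), from all spliced forms, reference transcripts alone, length-weighted FPKM and shared introns. On the left all 16 points lie below 0, and on the right VAPA runs from -0.70 to 1.75 and ACSM3 from -0.12 to 0.43, while MPST stays between 2.07 and 2.08.

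The balance of assembled to reference forms, log2 of their ratio with 0.5 FPKM added to each, was fitted over the 6759 genes that had both kinds. No gene (0, or 0%) passed an adjusted p of 0.05 in limma on K700E induction, WT induction or the difference between them, and 308, 344 and 299 genes had an unadjusted p under 0.05. VAPA had the largest value among the 4 genes, 8.97 (SE 1.96) on WT induction, with an adjusted p of 0.674. Its size depended on the FPKM added, with 11.3 at 0.1 FPKM and 7.97 at 1 FPKM. The assembled forms of VAPA stood only in the WT_induced libraries, whose high FPKM was part of the choice. The values of the 4 genes are therefore a description. ACSM3 had 4.22 (SE 2.76) on K700E induction and 4.43 (SE 2.76) on WT induction. ELP2 had -2.83 (SE 3.90) and 1.17 (SE 3.90), with both kinds of form swapped in and out within a group.

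Genes next to the members differed in their values. ELP2 starts 479 nt from the zinc transporter gene SLC39A6, which runs the other way and had 2.53 and 3.16 FPKM in K700E_induced against 3.71 and 7.17 FPKM in K700E_uninduced, and 5.02 and 3.62 FPKM in WT_induced against 1.82 and 4.88 FPKM in WT_uninduced. Its K700E groups did not overlap and its WT groups did. REXO5, beside ACSM3, had 20.8 and 17.7 FPKM in K700E_induced against 16.5 and 28.4 FPKM in K700E_uninduced and was listed at 0 in all 4 WT libraries. The nearest genes above VAPA and MPST, APCDD1 and KCTD17, were listed at 0 in all 8 libraries.

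Genes whose log2 FPKM ran most like that of a member over the 8 libraries were searched among 8778 genes above 0 in all libraries. For VAPA they were E2F4 (Pearson r 0.96), ZNF436 (0.92) and ALG3 (0.89), and for MPST RTN4IP1 (0.95), SYNGR2 (0.93) and PLD3 (0.93). For ELP2 they were SNRPE (0.98), URM1 (0.95) and BIRC2 (0.95), and for ACSM3 DHRS7 (0.98), CLN3 (0.95) and FNDC10 (0.94). All these values come from the same 8 libraries and are a description. E2F4 had 88.9 and 80.7 FPKM in WT_induced against 43.6 and 52.8 FPKM in WT_uninduced. It had 41.84 and 43.99 FPKM in K700E_induced against 51.68 and 44.05 FPKM in K700E_uninduced. The groups of E2F4 did not overlap in either line, in the same directions as VAPA, though narrowly in the K700E line. PLD3 had its 2 lowest values in WT_uninduced, 83.1 and 88.1 FPKM, against 109.0 to 135.7 FPKM in the other 6 libraries, as MPST did. Among the members themselves r was 0.84 for MPST and ELP2, 0.79 for ACSM3 and VAPA, and between -0.003 and 0.39 for the other pairs.

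Other genes of the same pathways lay on both sides of 0. In each of 4 lists no gene (0) passed the test in any of the 3 comparisons, and the lists' medians are set beside all-gene medians of -0.01 on K700E induction and 0.01 on WT induction. Of 17 tested VAP relatives and partners at membrane contacts, 9 lay above 0 and 8 below on K700E induction (median 0.10), and 7 above and 10 below on WT induction (median -0.13). VAPB, the paralog of VAPA, had 11.5 and 8.19 FPKM in K700E_induced against 8.52 and 9.64 FPKM in K700E_uninduced, and 6.56 and 12.7 FPKM in WT_induced against 8.04 and 30.9 FPKM in WT_uninduced, so that its groups overlapped in both lines. MOSPD3, of the same domain family, had 30.7 and 31.6 FPKM in K700E_induced against 35.7 and 33.2 FPKM in K700E_uninduced, and 35.5 and 28.5 FPKM in WT_induced against 5.13 and 27.9 FPKM in WT_uninduced. Its groups went the way of VAPA in both lines without overlap, with log2 changes of -0.14 on K700E induction and 1.35 on WT induction, and 1 WT_uninduced library, at 5.13 FPKM, stood apart from the other 7. ACBD4 and ACBD5 tether peroxisomes to the endoplasmic reticulum through VAP proteins. Their log2 changes were 0.81 and -0.91 on K700E induction and -1.91 and 1.51 on WT induction. The groups of ACBD5 overlapped in both lines, with 5.07 and 0.0129 FPKM in WT_uninduced. Those of ACBD4 overlapped in the K700E line, with 4.81 and 20.2 FPKM in K700E_uninduced.

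Of 11 other genes of sulfur transfer and sulfide metabolism, 6 lay above and 5 below 0 on K700E induction (median 0.06), and 8 above and 3 below on WT induction (median 0.25). GOT2, a mitochondrial aminotransferase that can supply 3-mercaptopyruvate, had log2 changes of -0.26 and 0.37 on the K700E and the WT induction. NFS1, the cysteine desulfurase, had -0.37 and 0.25. The groups of GOT2 overlapped in the K700E line, and those of NFS1 in both lines. SUOX, sulfite oxidase, had -0.05 and -1.20, and TSTD3, a small rhodanese-domain gene, had 2.48 and -0.65. SUOX was at 12.2 and 2.56 FPKM in WT_induced against 14.98 and 12.7 FPKM in WT_uninduced. The WT groups of TSTD3 overlapped.

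Of 12 other genes of Elongator and wobble uridine modification, 7 lay above and 5 below 0 on K700E induction (median 0.19), and 7 above and 5 below on WT induction (median 0.28). URM1, the ubiquitin-like sulfur carrier of wobble uridine thiolation, had 15.3 and 20.3 FPKM in K700E_induced against 33.5 and 27.1 FPKM in K700E_uninduced, and 25.5 and 24.6 FPKM in WT_induced against 15.5 and 10.6 FPKM in WT_uninduced. Its groups did not overlap in either line, in the same directions as ELP2, and the difference between the inductions was -1.69 (SE 0.59), not called by limma (adjusted p = 0.999; 0.564 to 1 over the alternatives). ELP5, a subunit of the Elongator side module, had log2 changes of -0.83 and 0.47, and its partner ELP6 had 0.58 and -1.90. The WT groups of ELP5 overlapped. ELP6 was at 6.98 and 9.60 FPKM in WT_induced against 89.0 and 11.2 FPKM in WT_uninduced. TRMT112, an activator of transfer RNA methyltransferases, had 0.18 and -0.81. Its WT groups overlapped, at 226.0 and 56.1 FPKM in WT_induced against 240.1 and 161.4 FPKM in WT_uninduced.

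Of 8 other acyl-CoA synthetase genes, 2 lay above and 6 below 0 on K700E induction (median -0.35), and 3 above and 5 below on WT induction (median -0.66). The list held 18 genes, and 9 were tested, ACSM3 among them. ACSM1, of the ACSM family, had 0 and 0 FPKM in K700E_induced against 3.41 and 19.4 FPKM in K700E_uninduced. It had 4.94 and 0 FPKM in WT_induced against 0 and 0 FPKM in WT_uninduced. ACSL1 and ACSL3, which activate long-chain fatty acids, had -0.34 and -0.20 on K700E induction and -1.07 and -0.89 on WT induction. ACSL4, with a preference for arachidonate, had log2 changes of 0.35 on K700E induction and 1.39 on WT induction. It had 9.49 and 9.10 FPKM in WT_induced against 3.59 and 2.90 FPKM in WT_uninduced. AACS, the acetoacetate enzyme, had log2 changes of -0.52 and 1.25. Its groups overlapped in both lines, and WT_uninduced replicate 1 was at 0.295 FPKM.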

How the data were processed

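RNA was prepared with Trizol and depleted of ribosomal RNA, per the labels' protocols. The authors deposited 1 transcript list per library, with FPKM per transcript, and the submitters' processing notes name CASAVA, TopHat, Cufflinks and the build hg19, without versions or settings. Cufflinks estimates how reads divide among overlapping transcripts, so a form can be listed at 0 in 1 library and hold the gene in another. Each list gives the FPKM, its interval and an estimated coverage, as the authors deposited them.

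A gene's value was the sum over its reference transcripts and over assembled transcripts of 300 nt or more given to it. A spliced one went to the gene with which it shared the largest number of introns, any shared intron being enough. An unspliced one counted only where it and a reference transcript without introns overlapped by at least 90% of each. Reference accessions (41264) were named through RefSeq tables (39706), the files (1132) or shared introns (294), and 132 stayed unnamed; ELP2 was found by accession, since no list names it. Printed levels are as deposited. Fits used values divided by median-ratio factors (0.9894 to 1.04, from 7591 genes), genes with a mean of at least 1 FPKM, log2(FPKM + 0.5), limma 3.58.1 (trend, all 8 libraries, group means) in R 4.3.3 and Benjamini-Hochberg adjustment over all genes tested, with a threshold of 0.05. FPKM is a normalised value, so no count model was run. Fold changes on this scale understate those of low genes. The fits were also run on simulated data, and no statement here rests on that run. With 2 libraries in each group, a gene that was not called may still differ. There were 14 alternatives for gene levels and 8 for the balance of forms. Tables were built with Python 3.11.15 and pandas 2.3.3, and figures with matplotlib 3.10.9.

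The members and lists were chosen with earlier results of these data known. Genes named beside the members are SF3B1, those that overlap or flank them, the 3 most alike per member, and per list up to 2 with the highest and 2 with the lowest difference between the inductions among those above 0 in all libraries. ACSM1, which was at 0 in some libraries, was added as a gene of the ACSM family.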

Additional observations from a re-analysis of the deposited data

Results flagged for a closer look

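In summed FPKM, all 4 genes were lower in both K700E_induced libraries than in both K700E_uninduced ones and higher in both WT_induced libraries than in both WT_uninduced ones. The difference between the inductions on the log2 scale was -2.26 for VAPA, -2.70 for MPST, -3.95 for ELP2 and -1.48 for ACSM3. The genes were picked for this difference, so the values are a description, and limma over all genes called none of the 4 (0; adjusted p of 0.832 for VAPA, 0.884 for MPST and 0.999 for ELP2 and ACSM3). With length weighting the WT groups of VAPA and ACSM3 overlapped.

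Short unspliced assembled transcripts inside the span of VAPA, which belong to no value above, summed to 114307 and 1082.3 FPKM × kb in the K700E_induced libraries, against 683.5 and 443.4 in the K700E_uninduced ones, 0 and 0 in WT_induced and 0 and 273.5 in WT_uninduced. They were 76 to 248 nt long, and there were 7 and 8 of them in K700E_induced against 2 and 2 in K700E_uninduced. The lowest K700E_induced value lay above both K700E_uninduced values, and the share of all genes with such a difference was not computed. Inside ELP2 there were 1 and 3 unspliced entries in K700E_induced against 9 and 2 in K700E_uninduced. Inside ACSM3 there were 4 and 1 against 1 and 9. A single VAPA entry of 76 nt, listed at 1.49e+06 FPKM, made up 99.0% of the 114307. Sums that rest on an entry of such length and FPKM are not read as amounts of RNA. Entries of 76 nt also made up nearly all of the sums inside ACSM3 in K700E_induced replicate 1 (317918), WT_induced replicate 2 (527996) and WT_uninduced replicate 2 (209362), and inside MPST in WT_uninduced replicate 1 (410433). Inside ELP2 an entry of 84 nt made up 99.4% of the 45636.5 in WT_induced replicate 2. The part of the unspliced entries inside VAPA in its lower spliced level was not tested.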

How the results depend on the processing

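Without any 1 library the gene-level changes of the 4 genes kept their direction, with -0.55 to -0.47 (VAPA), -0.86 to -0.40 (MPST), -1.88 to -0.80 (ELP2) and -1.42 to -0.69 (ACSM3) on K700E induction and 1.4997 to 2.0033, 1.90 to 2.25, 1.97 to 3.25 and 0.15 to 0.70 on WT induction. With reference transcripts alone the sign turned for VAPA on WT induction (-0.70) and in the difference between inductions (0.19), and for ACSM3 on WT induction (-0.12; -0.0093 on shared introns). Assembled transcripts alone put ACSM3 at 2.91 on K700E induction and gave MPST no value. In the balance, the difference between inductions turned to -0.42 for MPST with a pseudocount of 0.1 and to 0.20 for ACSM3 with length weighting. Leaving out 1 library gave balances of -3.24 to 0.40 (MPST) and -6.45 to 0.80 (ELP2) on K700E induction, -4.62 to 6.95 (ELP2) on WT induction, and -1.16 to 2.47 (MPST), -9.78 to 1.80 (ELP2) and -3.87 to 3.44 (ACSM3) for the difference. Of the other values of the 4 genes, 222 at gene level and 159 for the balance moved by less than 1 SE, and 18 and 7 by more. Genes called on K700E induction were 2 with a pseudocount of 0.1, 27 without the filter, 2 with reference and 0 with assembled transcripts alone, 0 on shared introns, and 1 to 8 without 1 library. On WT induction they were 13 without the filter, 9 with reference and 0 with assembled transcripts alone, 0 from the WT libraries alone, 4 without the trend, and 0 to 11 without 1 library. For the difference they were 11 without the filter, 0 with assembled transcripts alone, 1 on shared introns, 0 with length weighting and 0 to 3 without 1 library. For the balance, leaving out 1 library gave 0 to 10 genes on K700E induction, 0 to 0 on WT induction and 0 to 3 for the difference. Where 1 library stands for a group, it is assumed to vary like the others. The cause of these shifts was not tested. A replicate block gave 1, 1 and 2 genes and left the changes of the 4 genes as they were. The log2 difference of replicate 1 from replicate 2 within a group was correlated between groups over 8778 genes. These correlations were -0.04 to 0.10, so the replicate numbers were not taken to pair libraries.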
